A study of Drosophila melanogaster with 8 samples.

Results

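The dpr and DIP genes of Drosophila encode 2 families of immunoglobulin-domain proteins on the neuronal surface, and their transcripts were followed here in developing retinas with and without a mutation of sevenless. The members were all 21 dpr genes and all 11 DIP genes, found by symbol or gene identifier among the 15127 genes of the deposited table. Several stood there under older names: dpr1 as dpr, dpr21 as CG42596, and the DIP genes under CG symbols, such as CG14010 for DIP-eta, CG42343 for DIP-beta and CG42368 for DIP-epsilon. All 32 were matched, and 31 averaged 5 or more normalized counts and were tested. The exception was DIP-iota.

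Retinas came from female pupae 40 h after puparium formation. The mutant animals (4 libraries, called S1, S2, S4 and S5 here) carried the sev[14] allele of sevenless and an unspecified w allele, written w[*] sev[14] in the labels. The control animals (4 libraries, W1, W2, W5 and W6) were w[1118]. Sevenless is the receptor that directs one precursor in each unit eye to become the R7 photoreceptor, and the labels give the study's subject as transcription that depends on R7. Each genotype was 1 stock, so effects of sev and of other stock differences cannot be told apart. Between 10 and 20 retinas were collected per genotype, and no label ties a library to its own animals or day, so p-values measure the spread between these libraries only. RNA from whole retinas does not show whether a lower level means fewer cells of a type or less RNA per cell.

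Dpr and DIP proteins bind each other across cell contacts in selective combinations, with most Dpr proteins having 1 preferred DIP partner or a few. In the fly visual system, photoreceptors and lamina and medulla neurons each use their own combination, and matched partners help axons and dendrites to find each other, to form synapses and, for some neurons, to survive. Dpr11 is known from the yellow subtype of R7, whose medulla partner, the Dm8 neuron, carries DIP-gamma.

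The libraries held between 13755813 and 19317307 reads, of which 13722 to 22781 per library fell on dpr genes and 1110 to 4212 on DIP genes. The targeted gene did not separate the labels: sev averaged 274 ± 137 normalized counts in sev14 retinas and 298 ± 58.3 in control retinas (SD, n = 4 each), with p = 0.629 in a 2-sided exact permutation test over 70 arrangements, whose smallest possible p is 0.0286. Without S4 the difference in sev changed sign, to 0.083 on the log2 scale (exact permutation p = 0.8). S2 and S5 were richest in reads of ribosomal RNA pseudogenes (12.5% and 10.1%), while the remaining libraries had 0.528% to 3.67%. Photoreceptor markers were abundant in every library, and the 11 listed summed to 60089 to 87016 normalized counts in sev14 retinas and 43545 to 72154 in control retinas. Markers of optic lobe and brain neurons were present as well, and S2 and S4 stood at their opposite ends. Of 12 markers matched, the 11 with a mean of at least 5 summed to 2260 to 8499 normalized counts in sev14 retinas and 3463 to 7798 in control retinas. VGlut, the vesicular glutamate transporter, and SoxN, a neuronal transcription factor, had the highest counts. The marker left out of the sums, tll, was listed at 0 in every library except W2, which had 1 read.

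Dpr transcripts outweighed DIP transcripts in the retina in every library. Per kilobase of exon, the dpr genes summed to 5211 ± 1326 normalized counts in sev14 retinas and 6178 ± 1704 in control retinas (SD, n = 4 each). The DIP genes summed to 470 ± 266 in sev14 retinas and 695 ± 382 in control retinas on the same scale. The ratio of the 2 sums was 12.4 ± 3.31 in sev14 retinas and 10.1 ± 3.08 in control retinas. The sums cover 21 dpr and 11 DIP genes, so part of the ratio comes from the number of genes. By library this ratio was 11.7, 8.35, 16.3 and 13.2 in S1, S2, S4 and S5, against 7.61, 7.31, 12.5 and 13.1 in W1, W2, W5 and W6, so the genotypes overlapped. The differences of the summed levels, sev14 minus control, were -0.25 for dpr genes and -0.57 for DIP genes on the log2 scale. Leaving out each library in turn moved them between -0.44 and -0.068 for dpr genes and between -1.03 and -0.22 for DIP genes.

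A few dpr genes carried most of that level. The most abundant was dpr7 (chromosome 4, 247124 to 253329 on BDGP6, minus strand), whose described partner is DIP-kappa. It had 2104, 1987, 1601 and 2071 normalized counts in S1, S2, S4 and S5, against 2041, 3593, 1655 and 1668 in W1, W2, W5 and W6. The sev14 libraries lay close together, and the control libraries did too apart from a high W2. Per kilobase of exon, dpr7 averaged 1281 ± 153 in sev14 retinas and 1478 ± 607 in control retinas, and between 18.3% and 29.0% of the summed dpr level in each library came from it.

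Next by mean level per kilobase came dpr21, dpr9 and dpr11. The level of dpr21 (chromosome 2R, 3066499 to 3191011, plus strand) was 308 ± 136 per kilobase in sev14 retinas and 847 ± 423 in control retinas, ranking 5 in sev14 retinas and 2 in control retinas. Its single annotated transcript of 993 bases is short for this family, and by coding length dpr21 ranked 10. The level of dpr9 (chromosome 3R, 15054930 to 15077206, minus strand) was 556 ± 95.7 per kilobase in sev14 retinas and 529 ± 31.9 in control retinas. The level of dpr11 was 543 ± 142 per kilobase in sev14 retinas and 522 ± 101 in control retinas, so dpr9 and dpr11 differed by less than their spread. By coding length, which leaves out untranslated exons, dpr11 stood first, followed by dpr7 and dpr9. Below them dpr19, dpr10, dpr8, dpr12, dpr1 and dpr6 followed in that order, with means over all libraries between 357 and 181 per kilobase, and neighbours in the order overlapped.

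The DIP receptors stood in the lower part of the order. DIP-eta led them with a mean of 98.0 normalized counts per kilobase over all libraries, followed by DIP-epsilon at 83.6 and DIP-beta at 78.8. These 3 differed by less than their spread between libraries. DIP-delta and DIP-alpha were the lowest tested members at 24.4 and 19.1 per kilobase. DIP-iota had 1 read in S1, 7 in S2 and 0 in the other 6 libraries, and a count of 0 allows up to 3 reads.

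**Figure D1:**
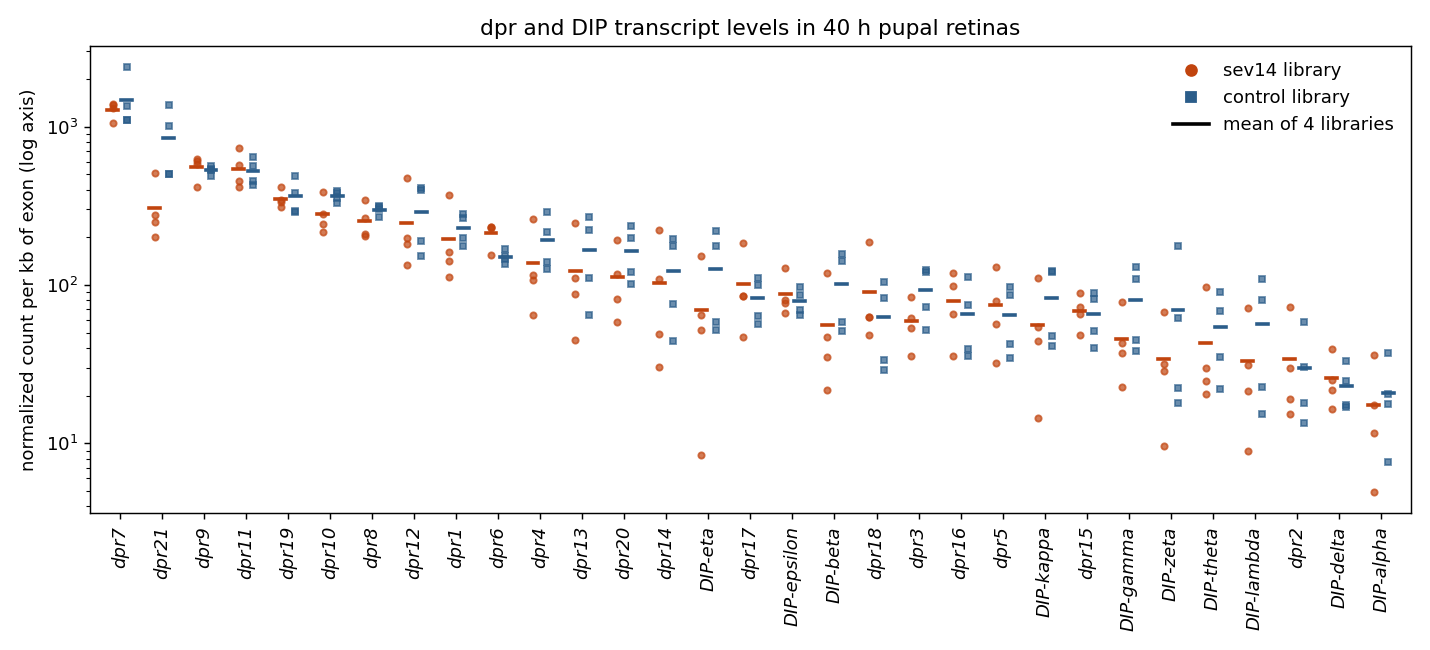
Level of each of the 31 tested dpr and DIP genes in normalized counts per kilobase of exon (log axis), genes ordered by their mean over all libraries; circles are sev14 libraries, squares control libraries, and bars the mean of 4. dpr7 is highest at 1281 in sev14 and 1478 in control retinas, the DIP genes lie in the lower part of the order, and dpr21 has its sev14 mean (308) below its control mean (847).

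No dpr or DIP gene passed the test for a difference between sev14 and control retinas. With limma on log2(normalized count + 1) and Benjamini-Hochberg adjustment over 10192 genes, 0 of 31 members had an adjusted p under 0.05, against 4.21% of all genes tested. The edgeR quasi-likelihood test called 0 of them as well (3.77% of all genes), DESeq2 called 1, dpr21 (7.85% of all genes with an adjusted p), and the authors' deposited table called 2, dpr21 and dpr6 (6.78%). At an unadjusted p under 0.05 limma gave 3 members, against 16.7% of all genes: dpr6 was higher (9.12% of all genes), and dpr21 and dpr10 were lower (7.54%). The count was below the background share. In no member were the 2 genotypes free of overlap, against 11.1% of all genes tested. Of the 31 estimates, 20 lay below 0, against 49.4% of all genes: 12 of 21 for dpr and 8 of 10 for DIP. The median log2 difference was -0.14 for dpr genes and -0.71 for DIP genes, against 0.0042 for all genes tested.

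**Figure D2:**
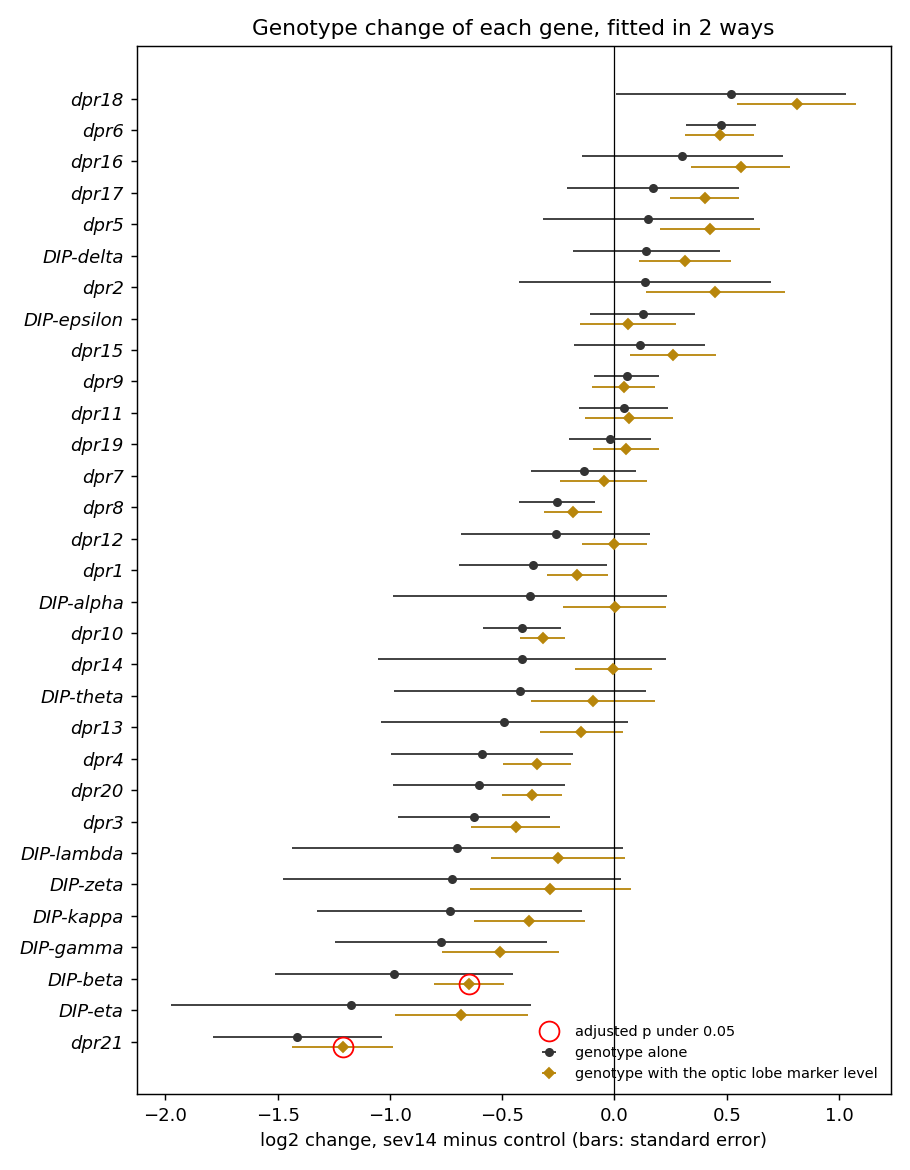
Log2 difference, sev14 minus control, of each tested gene, with its standard error, fitted with genotype alone (circles) and with the optic lobe marker level as a second term (diamonds); red rings mark an adjusted p under 0.05. With genotype alone no gene is ringed; with the marker level dpr21 and DIP-beta are, and most standard errors are shorter.

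The largest estimate in the network with all libraries was that of dpr21, whose protein shares the partners DIP-beta and DIP-lambda with Dpr8 and Dpr9. It had 273, 504, 249 and 198 normalized counts in S1, S2, S4 and S5, against 1001, 1362, 501 and 502 in W1, W2, W5 and W6. The genotypes touched at a single point: S2 lay just above W5 and W6, and the other 3 sev14 libraries lay below every control library. The means were 306 ± 135 in sev14 retinas and 842 ± 419.7 in control retinas (SD, n = 4 each), a log2 difference of -1.41 (SE 0.38, 95% interval -2.25 to -0.57). Its limma adjusted p was 0.0692, above the threshold of 0.05, and edgeR gave 0.0695. DESeq2 gave -1.46 with an adjusted p of 0.00329, and the authors' deposited table gave -1.46 with an adjusted p of 0.0309. Without S2 the limma estimate was -1.68 (adjusted p = 0.0305). Without S2 and S5, the libraries rich in ribosomal RNA pseudogene reads, it was -1.55 (adjusted p = 0.105). In those fits DIP-eta had the larger estimate, -1.75 without S2 and -2.13 without S2 and S5, with adjusted p over 0.05.

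The 2 other dpr genes of that binding group did not differ by a comparable amount. dpr9 had 1999, 2904, 2819.6 and 3006 normalized counts in S1, S2, S4 and S5, against 2604, 2345, 2549 and 2712 in W1, W2, W5 and W6. S1 was the lowest of all libraries for dpr9, and the other sev14 libraries were the highest. The log2 difference of dpr9 was 0.055 (95% interval -0.27 to 0.38), and that of dpr8 was -0.25 (95% interval -0.63 to 0.13). Their receptor DIP-beta (chromosome X, 21422115 to 21457738, minus strand), known from lamina neurons, had 248, 632, 115 and 184 normalized counts in S1, S2, S4 and S5, against 745, 826, 306 and 272 in W1, W2, W5 and W6. S2 lay between the lower control libraries, W5 and W6, and the higher ones, and the rest of the sev14 libraries lay below all 4. The means of DIP-beta were 295 ± 231 in sev14 retinas and 537 ± 289 in control retinas, a log2 difference of -0.98 (SE 0.53, limma adjusted p = 0.405). DIP-lambda, the group's second receptor, gave -0.70 (SE 0.74).

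The dpr6 and dpr10 genes encode the ligands of DIP-alpha, a receptor used by motor neurons and by neurons of the medulla. They lie 8.09 kb apart on chromosome 3L, in opposite orientation and with no protein-coding gene of the table between them: dpr6 at 9974651 to 10139360 on the plus strand and dpr10 at 10147454 to 10186108 on the minus strand. dpr6 had 968, 1474, 1434 and 1472 normalized counts in S1, S2, S4 and S5, against 859.7, 962, 1057 and 922 in W1, W2, W5 and W6. The sev14 libraries other than S1 were above every control library, and S1 lay within the control range. The means of dpr6 were 1337 ± 247 in sev14 retinas and 950.0 ± 82.5 in control retinas, a log2 difference of 0.48 (SE 0.16, limma adjusted p = 0.141). Without S1 the difference was 0.62 (adjusted p = 0.0295). The authors' deposited table gave dpr6 a log2 fold change of 0.49 with an adjusted p of 0.0325.

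The neighbouring dpr10 pointed the other way. It had 995, 1363, 763 and 854 normalized counts in S1, S2, S4 and S5, against 1357, 1389, 1257 and 1167 in W1, W2, W5 and W6. S2 lay between the control libraries, and the other sev14 libraries were below all of them. The means of dpr10 were 994 ± 264 in sev14 retinas and 1293 ± 101 in control retinas, a log2 difference of -0.41 (SE 0.18, limma adjusted p = 0.263), and without S2 it was -0.57 (adjusted p = 0.0499). The log2 ratio of dpr6 to dpr10 was -0.039, 0.11, 0.91 and 0.79 in S1, S2, S4 and S5, against -0.66, -0.53, -0.25 and -0.34 in W1, W2, W5 and W6. The genotypes did not overlap in this ratio, which was chosen after the values were seen and is given without a test. Their receptor DIP-alpha ranged from 44.1 to 326 normalized counts in sev14 retinas and from 68.8 to 335 in control retinas.

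dpr11 (chromosome 3R, 6529169 to 6593330, minus strand), the ligand known from yellow R7 cells, had no detectable difference between these libraries. It had 2116, 3389.7, 2678 and 1921 normalized counts in S1, S2, S4 and S5, against 2001, 2607, 2101 and 3007 in W1, W2, W5 and W6. Both genotypes spread over almost the same range, with the lowest and the highest values in sev14 libraries. The means of dpr11 were 2526 ± 659 in sev14 retinas and 2429 ± 468 in control retinas. The log2 difference was 0.041 with a 95% interval of -0.40 to 0.49 (limma adjusted p = 0.957), and it was -0.10 when libraries were scaled by total reads. That scaling moved the median of all genes by -0.14. Of the 3 listed R7 markers, limma called 0 for genotype, against 4.21% of all genes tested. Their log2 differences were 0.15 for pros, -1.01 for run and 0.76 for ss (limma adjusted p = 0.931, 0.757 and 0.293). Whether dpr11 depends on R7 cells was not tested.

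The other genes of the dpr11 binding group share DIP-gamma as a receptor. Their log2 differences were 0.11 for dpr15, 0.30 for dpr16 and 0.17 for dpr17, each smaller than its standard error. DIP-gamma ranged from 70.3 to 243 normalized counts in sev14 retinas and from 119 to 403 in control retinas, with a log2 difference of -0.77 (SE 0.47, limma adjusted p = 0.479). Per kilobase, the 4 dpr genes of the group summed to 792 ± 222 in sev14 retinas and 735 ± 109 in control retinas, against 45.2 ± 23.6 and 80.4 ± 45.7 for DIP-gamma in the same genotypes.

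DIP-eta (chromosome 2L, 5601723 to 5617946, minus strand), a receptor for Dpr1 to Dpr5, had the largest estimate among the DIP genes and the widest spread in the network. It had 193, 456, 25.3 and 156 normalized counts in S1, S2, S4 and S5, against 526, 656, 175 and 155 in W1, W2, W5 and W6. S4 was far below the rest, and S1 and S5 sat at the level of the 2 lower control libraries, W5 and W6. The log2 difference of DIP-eta was -1.17 with an SE of 0.80 (limma adjusted p = 0.540). DIP-theta, whose gene lies 8.34 kb away on the same strand, gave -0.42 (SE 0.56). Of the ligands, dpr1 gave -0.36 (SE 0.33). The estimates were -0.63 for dpr3, -0.59 for dpr4, 0.14 for dpr2 and 0.15 for dpr5, all with adjusted p over 0.05.

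DIP-epsilon (chromosome 2L, 6377771 to 6411326, minus strand) differed in pattern from the other DIP genes. It had 254, 244, 401 and 209.9 normalized counts in S1, S2, S4 and S5, against 203, 270.3, 219.6 and 305 in W1, W2, W5 and W6. S4, which was the lowest sev14 library for the other 9 tested DIP genes, was the highest library here. The log2 difference of DIP-epsilon was 0.13 (95% interval -0.39 to 0.64). DIP-zeta, which shares its ligands, gave -0.72 (SE 0.75), and these ligands gave -0.60 for dpr20, -0.49 for dpr13, -0.41 for dpr14, -0.020 for dpr19 and 0.52 for dpr18. The 2 remaining groups were dpr12 with DIP-delta, a pair known from the wiring of the mushroom body, at -0.26 (SE 0.42) and 0.14 (SE 0.33), and dpr7 with DIP-kappa, at -0.14 (SE 0.23) and -0.73 (SE 0.59).

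Variation between libraries of one genotype was large for this network. The SD of log2 level within genotypes had a median of 0.71 over the 31 members, 1.00 for DIP and 0.65 for dpr genes, against 0.31 for all genes tested. Among members it ran from 0.20 for dpr9 to 1.44 for DIP-eta. Most members followed the same libraries: S2 was above S4 in 30 of 31 members, against 51.5% of all genes, and DIP-epsilon was the exception. S2 was the highest sev14 library in 28 members (26.6% of all genes) and S4 the lowest in 23 (31.3% of all genes). The ratio of S2 to S4 had a median of 6.23 for DIP genes and 3.25 for dpr genes, against 1.01 for all genes tested, and it was 18.0 for DIP-eta and 0.609 for DIP-epsilon.

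The same order of libraries was seen in the markers of optic lobe and brain neurons. Their mean log2 deviation over 11 markers was 1.06 in S2 and -1.18 in S4, with -0.0038 in S1 and -0.45 in S5, against 0.51 and 0.82 for W1 and W2 and -0.15 and -0.59 for W5 and W6. In a limma fit with genotype and this marker level, 24 of 31 members were higher where the markers were higher (Benjamini-Hochberg adjusted p under 0.05 over all genes), against 5.62% of all genes tested apart from the markers, and 0 were lower, against 4.31%. These were 9 of 10 DIP and 15 of 21 dpr genes. The median slope, in log2 units of the gene per log2 unit of the markers, was 1.19 for DIP and 0.69 for dpr genes, against 0.018 for all genes. DIP-eta (1.70), DIP-lambda (1.55), DIP-zeta (1.51) and dpr14 (1.41) had the steepest slopes. The retina adjoins the optic lobe in the animal, and whether RNA of optic lobe neurons reached these libraries was not tested.

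The 7 members without a called slope were dpr6, dpr7, dpr8, dpr9, dpr11, dpr19 and DIP-epsilon, with slopes from -0.22 to 0.30. They held 4 of the 6 highest places by level per kilobase. Slopes of 14 members passed the threshold without each library in turn, among them DIP-alpha, DIP-beta, DIP-eta, dpr1, dpr12 and dpr14, and the count ran from 17 to 25. With both S2 and S4 left out, the libraries farthest from the median marker level, the count was 7 (DIP-beta, DIP-eta, DIP-lambda, dpr12, dpr13, dpr14 and dpr21), against 0.797% of all genes tested apart from the markers. In that fit 27 members had a slope above 0, against 50.02% of genes that were neither members nor markers, and the median slope was 1.05 for members and 0.00027 for those genes. With all libraries it was 28 members, against 52.5%.

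**Figure D3:**
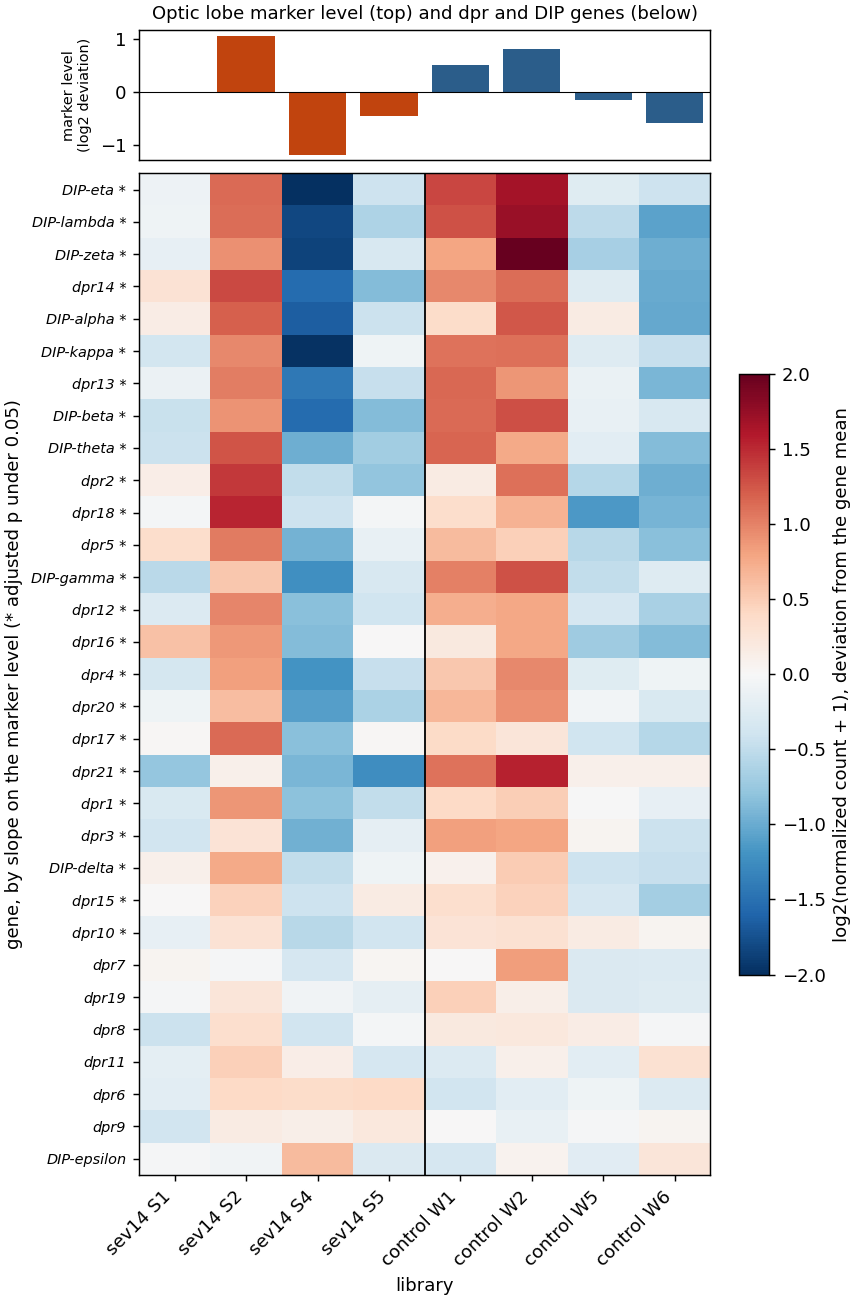
Top, mean log2 deviation of 11 optic lobe and brain neuron markers in each library, sev14 left of control. Below, deviation of each tested gene's log2(normalized count + 1) from its own mean, genes ordered by slope on the marker level, with an asterisk for an adjusted p under 0.05; genes in the upper rows are high in S2, W1 and W2 and low in S4, as the markers are, and the 7 lowest rows carry no asterisk.

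With the marker level as a second term, the genotype difference passed the test in 2 members, both lower in sev14 retinas, against 3.61% of all genes lower and 4.26% higher. dpr21 fell by 1.21 on the log2 scale (SE 0.22, limma adjusted p = 0.00950). DIP-beta, a receptor of Dpr21, fell by 0.65 (SE 0.16, limma adjusted p = 0.0337). Leaving out each library in turn gave dpr21 adjusted p-values from 0.00153 to 0.0623, over the threshold only without S2, and gave DIP-beta 0.0270 to 0.140, under the threshold only without S4 or without W5. The median log2 difference in this fit was -0.00054 for dpr genes and -0.27 for DIP genes, against 0.0082 for all genes tested. dpr6 kept its estimate at 0.47 (adjusted p = 0.104), and dpr10 stood at -0.32 (adjusted p = 0.0894).

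**Figure D4:**
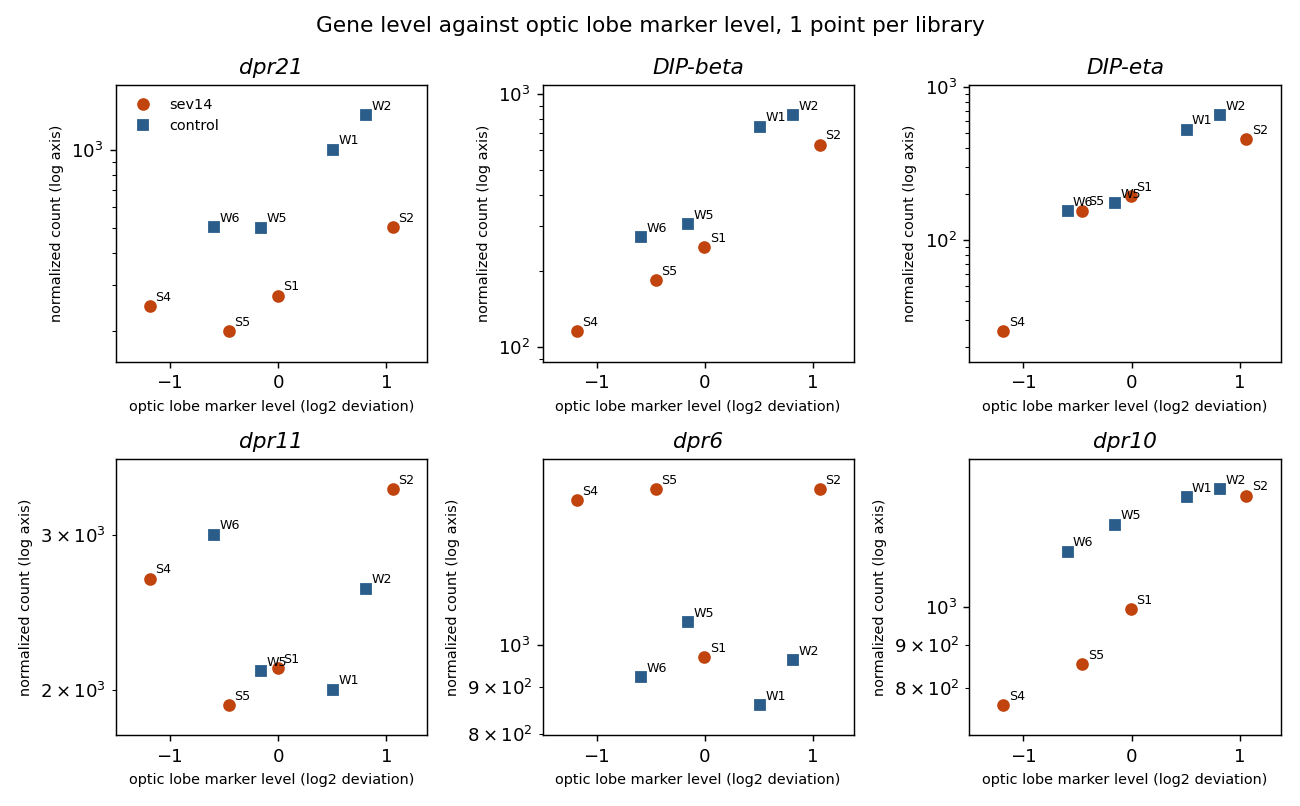
Normalized count (log axis) of 6 genes in each library against the mean log2 deviation of the optic lobe and brain neuron markers; circles are sev14 and squares control libraries. dpr21, DIP-beta, DIP-eta and dpr10 are higher where the markers are, with the sev14 points of dpr21 below control points of similar marker level, while dpr11 and dpr6 show no called slope.

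Other surface proteins of the immunoglobulin superfamily, which include the Beat and Side families, were set beside the network. Of 45 tested, 0 were higher and 2 lower in sev14 retinas with limma (2.38% and 1.82% of all genes tested). These were wrapper, a surface protein of glia that was also among the listed cone cell markers, and bdl (borderless), which acts in photoreceptor axon targeting. The level of bdl was 552, 605, 638 and 718 normalized counts in S1, S2, S4 and S5, against 1146, 825, 1122 and 1113 in W1, W2, W5 and W6, so every sev14 library lay below every control library (log2 difference -0.74, limma adjusted p = 0.0198). The call of bdl was lost without S1, W1, W5 or W6 in turn and with the replicate block, and that of wrapper without W5, when 0 of the 45 passed. With the marker level, 27 of the 45 had a called positive slope and 0 a negative one, with a median of 0.53, against 5.62% and 4.31% of all genes tested apart from the markers. Photoreceptor markers had 1 of 11 with a positive (elav) and 4 of 11 with a negative called slope. Among glial markers, 2 of 8 had a positive one (Eaat1 and alrm) and 0 a negative one. Cone cell markers had 1 of 5 with a positive (ct) and 3 of 5 with a negative called slope. Of the 3 R7 markers, pros had a called positive slope (0.93, limma adjusted p = 0.00986), while run and ss had no called slope. Counts of pros were 6875 in S2 and 1347 in S4, and which cells its RNA came from was not tested.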

How the data were processed

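Polyadenylated RNA of 8 retina libraries was measured by paired-end sequencing on a MiSeq, per the labels. Tools named in the submitters' processing notes were DESeq2 1.32.0, RSEM 1.2.31, HISAT2 2.0.3, cutadapt 1.9.1 and FastQC 0.11.4, and the builds named were BDGP6 and dm6. Each library has a column of signal that the authors made, gene counts divided by a size factor. Values were whole multiples of 1 read: 99.98% or more lay within 0.05 reads of a whole number, with a largest deviation of 0.0552 reads. The deposited log2 fold change, score and p-value were used only for comparison. The sources used here do not say whether counting used strand, and 6 members (dpr4, dpr16, DIP-alpha, DIP-gamma, DIP-zeta and DIP-theta) share exon bases with other genes.

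Genes with a mean of at least 5 were tested with limma 3.58.1 (R 4.3.3) 2-sided and with an intensity trend, on values transformed as log2(normalized count + 1), with Benjamini-Hochberg adjustment at 0.05. This scale understates the change of low genes. Alternatives used edgeR 4.0.16 and DESeq2 1.42.0 on recovered reads. Exon lengths come from the Ensembl BDGP6 annotation, and coordinates from the deposited table. Columns were assigned to genotypes by the letters in their names. The named genes were dpr11, dpr21, members with an unadjusted p under 0.05, the 3 highest per kilobase of each family and the 3 largest changes. The members, lists and rules were chosen with earlier results of these data known. Marker genes not matched were not analysed here.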

Additional observations from a re-analysis of the deposited data

Results flagged for a closer look

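In 4 of 65 groups of 4 libraries checked, 1 library's gap to its nearest neighbour took more of the group's whole range than Dixon's 95% limit allows, which chance alone gives in about 1 group in 20. For dpr6 in sev14 retinas the low library was S1, with a gap of 0.921 of the range. For dpr18, a ligand of the DIP-epsilon group, the high library in sev14 retinas was S2, with 491 normalized counts against 128 to 166 in the other sev14 libraries and a gap of 0.894 of the range. For DIP-theta it was S2 as well, with 281 normalized counts against 58.9 to 86.0 in the other sev14 libraries and a gap of 0.878. For DIP-iota, with 8 reads in all, S2 held 7 of them, a gap of 0.853.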

How the results depend on the processing

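The count of members called for genotype, 0 with genotype alone, was 1 (dpr21) with total read scaling, with DESeq2 and with the replicate block, 2 with the marker level, and 0 to 2 when each library was left out, with or without the marker level. It was 0 under the other settings, which were TMM, recomputed size factors, both pseudocounts, both filters, edgeR, array weights and leaving out S2 and S5 or W6 and S4 (a pair of libraries each time). Libraries with the same column number did not deviate together in every pair (correlations 0.0869 for S1 and W1, 0.190 for S2 and W2, 0.0625 for S5 and W5), and while S2 correlated best with W2, its own number, S1 and S5 did so with W2 and W6, so the numbers were not taken to pair the samples. The replicate block gave dpr21 -1.55 (limma adjusted p = 0.00506), and the immunoglobulin surface genes 1 call, against 2 without it and 0 to 3 when each library was left out. The count for the marker level was 19 without the genotype term, 24 with a pseudocount of 5, and 7 without S2 and S4, a choice made after the data were seen, as was leaving out each library with the marker level. Total read scaling gave dpr21 -1.55 (adjusted p = 0.0408).

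Several estimates changed sign, among them those of dpr14 (-0.41) and DIP-alpha (-0.37). With total read scaling they were -0.00466 for dpr2, -0.088 for dpr9, -0.10 for dpr11, -0.030 for dpr15 and -0.017 for DIP-epsilon. Without S2 and S5 they were -0.11 for dpr2, -0.22 for dpr5, -0.10 for dpr9, -0.00937 for dpr11, -0.14 for dpr15, -0.32 for dpr17 and -0.12 for DIP-delta. For dpr19 the value was 0.060 with array weights and 0.051 with the marker level, which gave DIP-alpha 0.000559. When each library was left out, estimates crossed 0 for dpr2 (-0.31 to 0.53), dpr5 (-0.17 to 0.49), dpr7 (-0.26 to 0.12), dpr9 (-0.0057 to 0.19), dpr11 (-0.11 to 0.16), dpr14 (-0.92 to 0.034), dpr15 (-0.10 to 0.28), dpr17 (-0.18 to 0.48), dpr19 (-0.12 to 0.14), DIP-alpha (-0.84 to 0.11), DIP-delta (-0.088 to 0.33) and DIP-epsilon (-0.066 to 0.24), and for sev (-0.51 to 0.083). The cause was not tested. With 4 libraries a genotype the 95% intervals of the DIP genes were wide, for DIP-eta from -2.96 to 0.61, and a difference of the size of its estimate was not detectable with these libraries.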
